A study of Arabidopsis thaliana with 4 samples.

Results

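A set of 55 Arabidopsis thaliana genes had at least 2.5 times the reads in roots labelled arf10/arf16 that they had in wild-type roots, both without and with aluminium (Al). They were taken from 22284 loci with reads, of which 9509 had at least 20 reads in both libraries labelled arf10/arf16. They were chosen by the 2 genotype ratios of CPM (reads scaled to the library total, with 1 read added to each count) and that floor of 20 reads. The genotype ratios of these genes are therefore given as a description, with no test. The ratio was past 2.5 without Al at 513 loci (5.39% of those over the floor), with Al at 148 loci (1.56%) and in both at 55 (0.578%). The 55 genes made up 10.7% of the first set and 37.2% of the second.

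The data were 4 root RNA libraries, with every pairing of genotype and treatment sequenced in 1 library. The wild type was Col-0 and the other line, in the same background, was labelled as an arf10/arf16 double mutant, with no alleles named. Seedlings grown for 6 days at pH 5.0 in 2% modified MGRL nutrient solution, about 500 of both lines per the labels, spent 24 h in that solution with 0 or 10 µM AlCl3, so that the controls too were in acidic, dilute medium. The libraries held 2080348 to 2280894 reads, and every interval below is an exact 95% interval for counting error alone, not for the spread between plants. Below, "labelled" means labelled arf10/arf16, and reads are given for wild type first and the labelled library second.

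ARF10 itself was among the 55 genes and had the highest genotype ratio with Al. ARF10 and ARF16 encode auxin response factors, DNA-binding proteins that mostly repress auxin-regulated genes and are held down by a microRNA; in roots they are known for the differentiation of the root cap. ARF10 had 110 and 3820 reads without Al, and 142 and 2640 reads with Al. It was 35.1-fold higher in the labelled library without Al (29.3 to 43.2) and 20.2-fold higher with Al (17.2 to 24.3), which goes against the label of a mutant. ARF16 had 159 and 71 reads without Al and 75 and 41 with Al, and was 2.18-fold (1.65 to 2.95) and 1.65-fold (1.13 to 2.51) lower in the labelled libraries. Counts per gene say nothing of transcript structure or protein, so each direction between genotypes rests on the labels.

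Several of the named genes, among them the WRKY factors, SARD1 and PROPEP3, are known from defence signalling in Arabidopsis. Receptors at the cell surface sense microbial patterns, damaged walls or the plant's own danger peptides, and calcium and kinase signals pass to WRKY factors, which bind the W-box, a DNA element with the core TTGAC. Products of the response include indole glucosinolates, sulfur compounds that are hydroxylated by P450 enzymes and then methylated, and salicylic acid, a defence hormone.

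The promoters of the 3 indole glucosinolate methyltransferase genes and of the 5 WRKY genes in the set are shown because IGMT3 and IGMT2 had the most reads after ARF10 in the untreated labelled library and because WRKY proteins bind the W-box. Each sequence holds the 250 bases before the annotated start of the gene, 5′ to 3′ on the strand of the gene, from the RefSeq annotation of TAIR10.1. Capitals mark the W-box core TTGAC, written GTCAA where it lies on the other strand. IGMT1 is at chr1:7388513-7388762 on the minus strand, IGMT3 at chr1:7391604-7391853 on the minus strand and IGMT2 at chr1:7396824-7397073 on the minus strand. WRKY62 is at chr5:352096-352345 on the minus strand, WRKY38 at chr5:7496991-7497240 on the minus strand and WRKY30 at chr5:8154711-8154960 on the minus strand. WRKY40 is at chr1:30383311-30383560 on the plus strand and WRKY53 at chr4:12393983-12394232 on the minus strand.
IGMT1: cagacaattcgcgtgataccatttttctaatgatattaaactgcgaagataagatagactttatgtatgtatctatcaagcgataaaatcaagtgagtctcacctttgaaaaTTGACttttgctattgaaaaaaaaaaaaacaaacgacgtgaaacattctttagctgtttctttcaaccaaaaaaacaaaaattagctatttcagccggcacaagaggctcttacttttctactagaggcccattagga
IGMT3: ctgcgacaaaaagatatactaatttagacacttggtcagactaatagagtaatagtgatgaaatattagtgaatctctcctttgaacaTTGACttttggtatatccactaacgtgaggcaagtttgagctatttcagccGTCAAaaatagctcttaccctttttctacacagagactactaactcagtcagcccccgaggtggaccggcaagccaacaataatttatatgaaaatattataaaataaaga
IGMT2: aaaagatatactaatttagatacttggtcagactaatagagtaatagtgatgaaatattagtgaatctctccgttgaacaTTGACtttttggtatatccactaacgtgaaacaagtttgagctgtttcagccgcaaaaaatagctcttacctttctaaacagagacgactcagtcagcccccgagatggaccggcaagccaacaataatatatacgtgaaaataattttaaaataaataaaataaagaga
WRKY62: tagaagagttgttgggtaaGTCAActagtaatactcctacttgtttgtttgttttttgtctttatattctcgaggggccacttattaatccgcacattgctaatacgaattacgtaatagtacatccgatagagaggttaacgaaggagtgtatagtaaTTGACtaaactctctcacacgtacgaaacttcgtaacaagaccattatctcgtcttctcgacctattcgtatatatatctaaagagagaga
WRKY38: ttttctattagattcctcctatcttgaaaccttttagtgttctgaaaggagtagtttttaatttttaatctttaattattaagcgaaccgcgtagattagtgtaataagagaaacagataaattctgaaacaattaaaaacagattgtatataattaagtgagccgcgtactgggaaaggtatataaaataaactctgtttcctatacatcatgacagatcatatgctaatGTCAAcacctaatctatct
WRKY30: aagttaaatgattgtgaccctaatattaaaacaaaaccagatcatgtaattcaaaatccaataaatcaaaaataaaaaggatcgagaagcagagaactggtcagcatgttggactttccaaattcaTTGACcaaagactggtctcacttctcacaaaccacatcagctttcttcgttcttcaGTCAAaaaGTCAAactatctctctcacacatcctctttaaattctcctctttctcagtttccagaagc
WRKY40: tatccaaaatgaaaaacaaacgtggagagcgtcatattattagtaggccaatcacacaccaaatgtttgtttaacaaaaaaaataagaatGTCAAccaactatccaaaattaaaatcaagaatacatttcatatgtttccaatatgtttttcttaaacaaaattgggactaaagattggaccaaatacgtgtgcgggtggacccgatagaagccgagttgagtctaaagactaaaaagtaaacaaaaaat
WRKY53: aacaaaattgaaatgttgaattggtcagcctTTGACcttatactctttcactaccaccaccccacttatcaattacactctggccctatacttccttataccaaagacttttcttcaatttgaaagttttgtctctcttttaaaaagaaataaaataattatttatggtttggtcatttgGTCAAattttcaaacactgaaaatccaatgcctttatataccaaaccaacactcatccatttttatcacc

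In these sequences WRKY30 held 3 cores, 2 of them 60 and 68 bases before the gene start, and IGMT3, WRKY62 and WRKY53 held 2 each. IGMT1, IGMT2, WRKY38 and WRKY40 held 1. Each promoter shown thus held a core, which was so for 43 of the 54 member promoters (79.6%). The peroxidase gene AT5G64110, for example, held 0. The promoters of IGMT2 and IGMT3 were identical at 84.5% of aligned positions, whereas that of IGMT1 was identical at 49.5% to IGMT2 and at 49.6% to IGMT3. The W-box core that IGMT2 and IGMT3 share lies 170 and 162 bases before their starts.

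Over the set, the read sums were 3570 and 21513 without Al and 2875 and 10601 with Al. These sums were 0.160% and 0.983% of the library without Al, and 0.126% and 0.510% with Al. The labelled library without Al had the highest CPM for 44 genes and the labelled library with Al for the other 11. For 48 genes the lowest labelled CPM lay above the highest wild-type CPM. For the remaining 7 the labelled roots with Al were below wild-type roots without Al, so their genotype ratio held within each treatment and not across them. The rule that chose the genes favours such separation. Its share over all loci was not computed, so nothing is read from the 48. Many counts in wild type were small: 18 genes had at most 20 reads in both wild-type libraries. Levels per kilobase can be compared between genes: in the deposited RPKM, which divides reads by model length and library total, ARF10 had 770 in the labelled library without Al, IGMT3 741, the glycine-rich protein gene AT5G28630 740 and IGMT2 708.

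**Figure D1:**
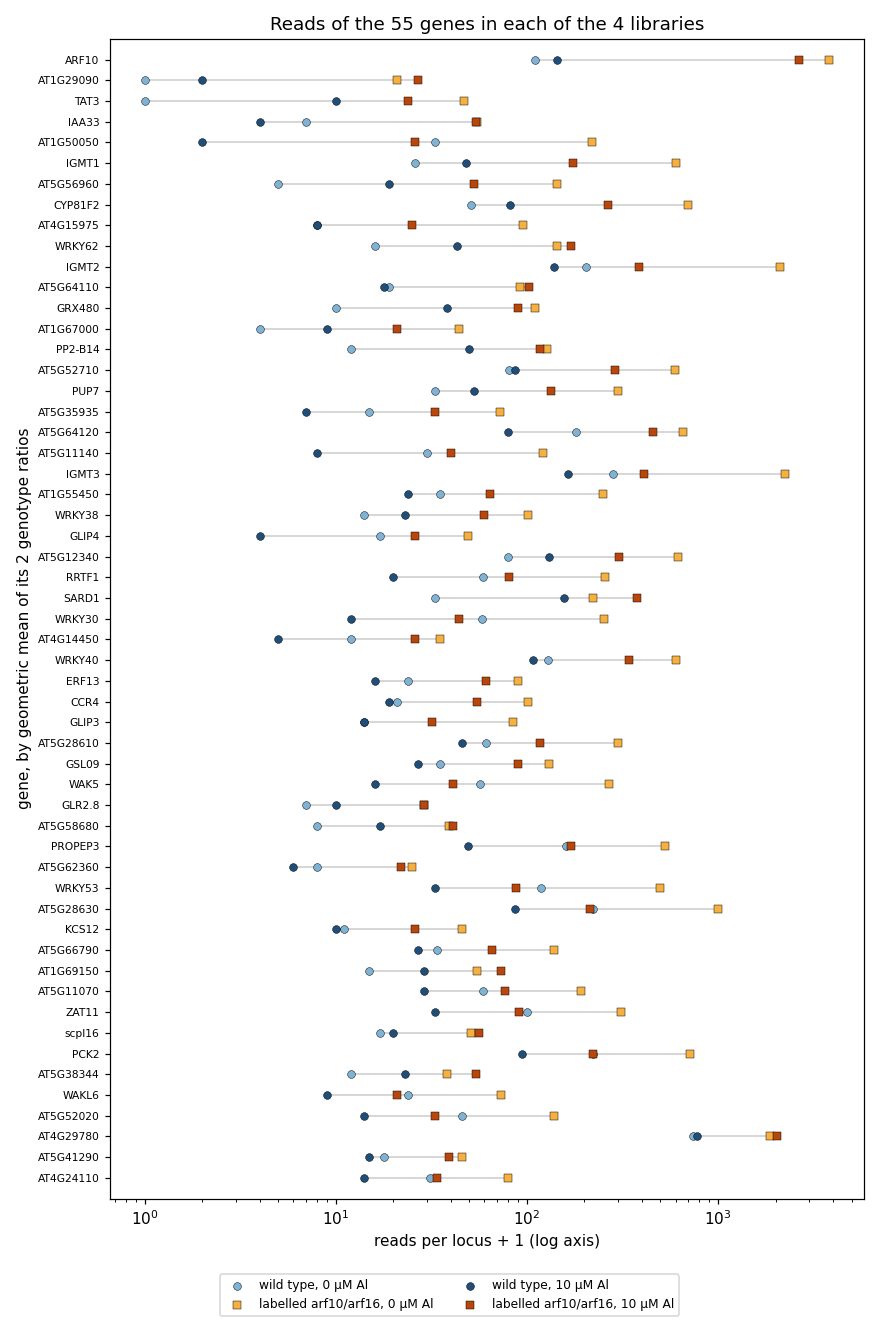
Reads of each of the 55 genes in the 4 libraries on a log axis, with 1 added so that 0 can be drawn, ordered by the geometric mean of the genotype ratios. Circles are wild type and squares the labelled libraries, with the darker shade for 10 µM Al; where values are equal the later symbol covers the earlier, as in AT4G15975 with 7 reads in both wild-type libraries.

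The set held 4 enzyme genes of indole glucosinolate modification, and others of that pathway did not meet the rule: IGMT4, under the read floor with 6 reads in treated labelled roots, had a genotype ratio of 11.2 without Al and 1.92 with Al, and CYP81F4 had 0.926 and 0.879. CYP81F2, the P450 that hydroxylates indole glucosinolates on the ring, had 50 and 694 reads without Al and 81 and 264 with Al. IGMT1, a methyltransferase that acts after it, had 25 and 605 reads without Al and 47 and 174 with Al. IGMT2 had 204 and 2104 reads without Al and 138 and 384 with Al, and IGMT3 had 281 and 2245 and then 164 and 408. In all 4 genes the labelled library without Al was the highest and the labelled library with Al the next, a separation of genotypes that the rule favours.

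The genotype ratio without Al was 23.8 for IGMT1 (16.6 to 38.4), 13.9 for CYP81F2 (10.6 to 19.3), 10.5 for IGMT2 (9.11 to 12.2) and 8.12 for IGMT3 (7.19 to 9.26). With Al these ratios were 3.997 (2.93 to 5.73), 3.54 (2.78 to 4.64), 3.04 (2.505 to 3.73) and 2.72 (2.27 to 3.29). The 3 IGMT genes lie next to each other on chromosome 1, and their coding sequences are close copies: IGMT1 and IGMT3 were identical at 93.1% of aligned positions, and 51.4% of the 36-base words of IGMT3 also occur in IGMT2. How the counting placed reads shared by such copies is not given in the sources used here, so the split of reads among the 3 genes is uncertain.

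Of a list of 18 indole glucosinolate and camalexin genes over the read floor, 7 were past 2.5-fold without Al and 4 with Al, and these 4 are the members. The members were 22.2% of the list, beside 0.578% of all loci over the floor. Past the fold were 5.39% of all loci over the floor without Al and 1.56% with Al. The median log2 ratio of the list was 1.11 without Al and 0.57 with Al, beside -0.10 and -0.04 over all loci past the floor.

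WRKY factors gave 5 members out of 44 WRKY genes over the floor (11.4%), beside 0.578% of all loci over the floor. Of these 44, 18 were past the fold without Al and 5 with Al, beside 5.39% and 1.56% of all loci over the floor. The median log2 ratio of the 44 was 0.99 without Al and 0.46 with Al. WRKY62, known as a nuclear regulator of basal defence downstream of salicylic acid, had 15 and 142 reads without Al and 42 and 169 with Al. WRKY38, a close relative with a similar role, had 13 and 100 reads and then 22 and 59. Both were higher in both labelled libraries than in either wild-type library, a separation that the rule favours.

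WRKY40, a repressor that responds quickly to microbial patterns, had 128 and 604 reads without Al and 107 and 341 with Al. WRKY53, known from leaf senescence and defence, had 117 and 494 reads and then 32 and 87. WRKY30, which is induced by pathogens and oxidative stress, had 57 and 252 reads and then 11 and 43. For WRKY30 and WRKY53 the labelled library with Al lay below wild type without Al. For WRKY40 the genotypes did not overlap, which the rule favours. The genotype ratios with Al were 4.33 for WRKY62 (3.13 to 6.34), 4.02 for WRKY30 (2.17 to 9.22), 3.47 for WRKY40 (2.80 to 4.38), 2.92 for WRKY53 (1.97 to 4.62) and 2.86 for WRKY38 (1.77 to 5.04).

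Other transcription regulators joined them. AT5G56960, a basic helix-loop-helix protein gene, had 4 and 143 reads without Al and 18 and 52 with Al. RRTF1, an AP2/ERF factor known from the response to wounding and reactive oxygen, had 58 and 256 reads and then 19 and 80, a genotype ratio of 4.44 in both treatments (3.37 to 6.09 without Al, 2.77 to 8.06 with Al). ERF13, of the same family, had 23 and 89 reads and then 15 and 60. The zinc finger gene ZAT11 had 99 and 310 reads and then 32 and 90. AT5G52020, which RefSeq describes as an integrase-type DNA-binding protein, had 45 and 137 reads and then 13 and 32.

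Of 12 stress AP2/ERF and ethylene synthesis genes over the floor, 5 were past the fold without Al and 3 with Al, and RRTF1 and ERF13 were members. Of 15 touch, calcium and rapid zinc finger genes, 7 and 2 were past it, and ZAT11 was the member. The members were 16.7% and 6.67% of these lists, beside 0.578% of all loci over the floor. Past the fold were 5.39% of all loci over the floor without Al and 1.56% with Al.

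Genes of salicylic acid and peptide signalling in the set included SARD1, GRX480 and PROPEP3. SARD1, a calmodulin-binding-protein-like factor that switches on salicylic acid synthesis, had 32 and 221 reads without Al and 156 and 376 with Al. It was higher with Al in both genotypes, and the wild type with Al stayed below both labelled libraries, which the rule favours. GRX480, a glutaredoxin that interacts with TGA factors downstream of salicylic acid, had 9 and 109 reads and then 37 and 89. PROPEP3, the precursor of a danger peptide that is sensed by receptor kinases at the cell surface, had 159 and 528 reads and then 48 and 169. In PROPEP3 the untreated wild type and the treated labelled roots were close, at 159 and 169 reads.

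SARD1 was 1 member among 7 salicylic acid genes over the floor, with 2 past the fold without Al and 1 with Al. PROPEP3 was 1 among 21 genes of pattern-triggered immunity, of which 13 were past it without Al and 1 with Al. These members were 14.3% and 4.76% of their lists, beside 0.578% of all loci over the floor. Past the fold were 5.39% of all loci over the floor without Al and 1.56% with Al. None of 15 jasmonate synthesis, breakdown and JAZ repressor genes was a member, although 10 were past the fold without Al, since 0 were past it with Al; the median log2 ratio of this list was 1.87 without Al and 0.58 with Al. TAT3, a tyrosine aminotransferase known to be induced by jasmonate, was not on that list. It had 0 and 46 reads without Al and 9 and 23 with Al, at least 15.6-fold higher without Al against a floor of 3 counts in wild type, and 2.63-fold higher with Al (1.25 to 6.88).

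Surface receptors and kinases were also among the members. WAK5, a wall-associated kinase of the family that binds pectin, had 56 and 269 reads without Al and 15 and 40 with Al. WAKL6, a wall-associated-kinase-like gene, had 23 and 72 reads and then 8 and 20. CCR4, a CRINKLY4-related kinase gene, had 20 and 101 reads and then 18 and 54. GLR2.8, a glutamate receptor-like channel gene, had 6 and 28 reads and then 9 and 28. WAK5 and WAKL6 were lower with Al in both genotypes, whereas the reads of GLR2.8 were equal in the labelled libraries.

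Kinase genes without a symbol were AT1G67000, with 3 and 43 reads without Al and 8 and 20 with Al, and AT5G66790, with 33 and 138 and then 26 and 65. AT5G41290, annotated as related to receptor-like kinases, had 17 and 45 reads and then 14 and 38. AT5G38344, a TIR-domain protein gene, had 11 and 37 reads and then 22 and 53. Of 411 loci over the floor whose annotation matched a search for protein kinases, 4 were members (40 past the fold without Al, 10 with Al). These were 0.973%, beside 0.578% of all loci over the floor. The search did not match WAK5 and WAKL6, annotated as wall associated kinases, so they are not among the 4. Of 69 disease resistance genes of the NBS-LRR kind, 18 were past the fold without Al and 0 with Al. Past the fold were 5.39% of all loci over the floor without Al and 1.56% with Al.

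Enzymes of the wall and of defence against oxidants or microbes included a pair of neighbouring peroxidase genes on chromosome 5. AT5G64110 had 18 and 91 reads without Al and 17 and 102 with Al, and AT5G64120 had 179 and 658 and then 79 and 455. Their genotype ratios were larger with Al, at 6.27 (3.91 to 11.7) and 6.25 (4.96 to 8.12), than without Al, at 4.94 (3.09 to 9.09) and 3.73 (3.17 to 4.45). Their coding sequences were identical at 61.4% of aligned positions and shared 0 of the 36-base words. Exact coding reads of that length would thus not be shared, while untranslated parts and matches with mismatches were not compared. GSL09, a callose synthase-like gene, had 34 and 129 reads and then 26 and 89. AT5G62360, of the invertase and pectin methylesterase inhibitor family, had 7 and 24 reads and then 5 and 21.

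GLIP3 and GLIP4 encode GDSL-motif lipases. GLIP4 had 16 and 48 reads without Al and 3 and 25 with Al, and GLIP3 had 13 and 84 and then 13 and 31. AT1G50050, of the family of pathogenesis-related protein PR-1, had 32 and 217 reads without Al and 1 and 25 with Al. In AT1G50050 the treated labelled library was below the untreated wild type. The ratio with Al was 14.2 (4.49 to 1125), and its upper bound reflects the 1 read in wild type.

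The auxin-related members besides ARF10 came down to 1 of 10 early auxin response genes over the floor (10%), beside 0.578% of all loci over the floor. IAA33, an atypical member of the Aux/IAA repressors, had 6 and 54 reads without Al and 3 and 53 with Al. Its labelled libraries differed by 1 read, and its genotype ratio was 8.01 without Al (3.95 to 26.1) and 14.8 with Al (6.28 to 96.9). Of the 10 genes, 3 were past the fold without Al and 1 with Al, and the median log2 ratio of the list was -0.06 and -0.16. Past the fold were 5.39% and 1.56% of all loci over the floor, where the medians were -0.10 and -0.04. Of 8 Al tolerance genes over the floor, 1 was past the fold without Al, 0 were past it with Al and 0 were members. With so few genes nothing is read from these counts.

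PCK2, a phosphoenolpyruvate carboxykinase of gluconeogenesis, had 220 and 716 reads without Al and 93 and 220 with Al. PUP7, a purine permease gene, had 32 and 300 reads and then 52 and 132. KCS12, which by its family elongates very long fatty acids, had 10 and 45 reads and then 9 and 25. AT1G29090, a cysteine protease gene, had 0 and 20 reads without Al, at least 6.80-fold higher in the labelled library, and 1 and 26 with Al (14.8-fold, 4.68 to 1169). AT4G29780, annotated as a nuclease, had the most reads in wild type of any member. Its 735 and 1879 reads without Al and 774 and 2045 with Al were close between treatments, and its genotype ratios were 2.61 (2.39 to 2.84) and 2.89 (2.67 to 3.15).

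PP2-B14, of the phloem protein 2 family, had 11 and 126 reads without Al and 49 and 116 with Al. AT4G15975, a RING-type ubiquitin ligase gene, had 7 and 95 reads and then 7 and 24. AT1G55450, a methyltransferase-like gene, had 34 and 250 reads and then 23 and 63; it is the only member with more than 1 transcript model listed. The genes AT5G52710 (copper transport family; 80 and 592, then 86 and 289 reads), AT5G12340 (DUF4228 domain; 79 and 614, then 129 and 301) and AT5G28630 (220 and 1003, then 86 and 213) were among the more abundant members. AT5G28630 was close between untreated wild type and treated labelled roots, at 220 and 213 reads. Scaled to the library total these were 98.6 and 102 CPM, so the labelled roots were slightly higher.

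The other members were fewer in reads or little described. AT5G11140, a PEARLI 4 family gene, had 29 and 120 reads without Al and 7 and 39 with Al, and the uncharacterized gene AT5G11070 had 58 and 190 and then 28 and 76. AT5G28610 had 60 and 300 reads and then 45 and 116. In these 3 genes both genotypes had fewer reads with Al. The uncharacterized genes AT5G35935 (14 and 71, then 6 and 32 reads) and AT4G14450 (11 and 34, then 4 and 25) had low counts. AT4G24110, annotated as a glutamate dehydrogenase, had 30 and 79 reads and then 13 and 33. AT5G58680, an ARM-repeat protein gene, had 7 and 38 reads and then 16 and 40. AT1G69150, a cysteine- and histidine-rich C1-domain gene, had 14 and 54 reads and then 28 and 72, and the serine carboxypeptidase-like gene scpl16 had 16 and 50 and then 19 and 55. In these last 3 genes both labelled libraries were above both wild-type libraries, a separation that the rule favours.

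Across the 55 genes the genotype ratio ran from 2.61 to 35.1 without Al, leaving out TAT3 and AT1G29090, which had 0 wild-type reads and are given as bounds above, with a median of 4.83 over all 55, and from 2.51 to 20.2 with Al, with a median of 3.02. It was larger without Al for 40 genes and larger with Al for 15. Both exact intervals lay above 1 for all 55 genes, above 2 for 27 and above 2.5 for 15. These intervals are for the ratios that chose the genes, so the counts are no support for a genotype difference. Scaling by TMM, an alternative to column totals, moves the log2 ratio of every locus up by 0.13 without Al and by 0.10 with Al. Just inside the threshold by the smaller of both ratios were GLIP3 at 2.51, AT5G12340 at 2.55, WAKL6 and AT1G67000 at 2.56 and PP2-B14 at 2.57. Just outside were AT1G26380, of the berberine bridge enzyme family, at 2.496, AT1G21326, a VQ-motif protein gene, at 2.48, the F-box gene AT3G44326 at 2.45, HR4 at 2.44 and AT1G33600 at 2.43. In all 5 members nearest the threshold the ratio with Al was the limiting value.

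**Figure D2:**
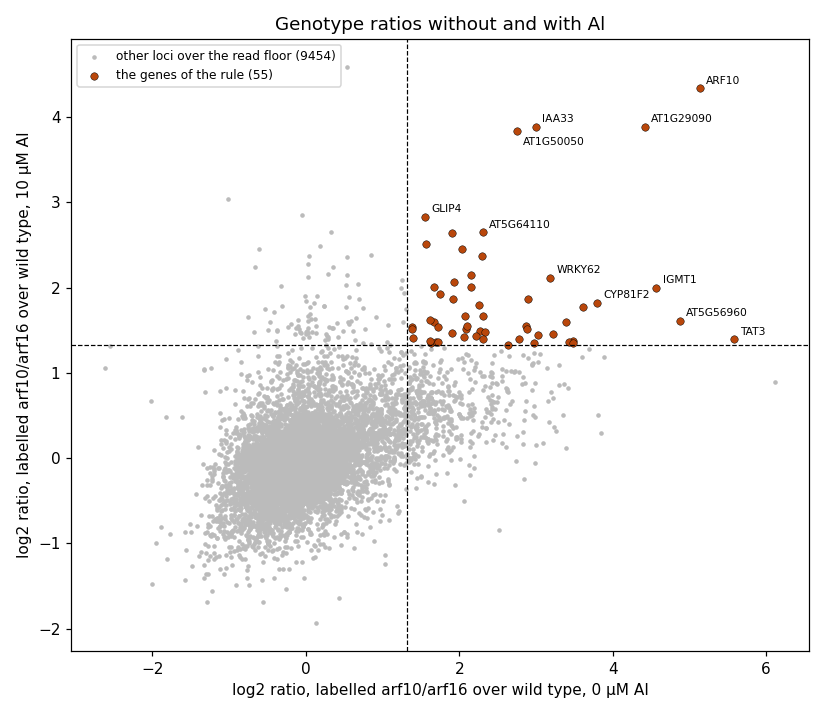
Log2 genotype ratio (labelled over wild type, CPM with 1 read added) without Al on the horizontal axis and with Al on the vertical axis for the 9509 loci over the read floor. Dashed lines mark 2.5-fold; TAT3 and AT1G29090, at 0 reads in untreated wild type, are drawn with the 1 read added, which sets their place on the horizontal axis; the 55 genes fill the upper right corner by construction, and 458 loci lie to the right of the vertical line but below the horizontal one, against 93 above the horizontal line alone.

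The rule set no threshold on the Al ratios, yet these ratios use the same 4 counts per gene that chose the set. High labelled and low wild-type counts were selected in each treatment, which bears on both ends of either Al ratio. The shares of the set called for Al are therefore a description. In wild type, 6 of the 55 genes (10.9%) were at least 2-fold higher with Al with an interval clear of 1, and 16 (29.1%) were lower. Over the 14739 loci kept for the fit these shares were 13.2% and 14.3%. In the labelled roots 0 were higher and 26 (47.3%) were lower, beside 10% and 11% of the kept loci. The kept loci did not have to meet the read floor that the members met. An interval clear of 1 is harder to reach with few reads, so these shares are not like for like. Shares over the loci past the floor were not computed. The median log2 Al ratio of the 55 genes was -0.29 in wild type and -0.96 in labelled roots, and over all kept loci it was -0.09 and -0.08. Over the loci past the read floor this median was -0.03 in wild type and -0.05 in labelled roots.

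With 1 library per group none of these differences has a replicate. Al was tested over both genotypes at once with edgeR's quasi-likelihood test, additive in genotype and treatment, 2 libraries against 2 with 1 residual degree of freedom, adjusted by Benjamini-Hochberg over all 14739 loci. It takes any difference in Al response between the genotypes as error, and nothing in the labels says that libraries came from separate cultures. Over all these loci, which did not have to meet the read floor, 2278 rose (15.5%) and 1924 fell (13.1%). Of the 55 genes 1 rose, 21 fell and 33 did not pass. DESeq2's Wald test on the same counts called 12 of the 21. These numbers of genes come from the libraries that chose the set, so they are a description of it.

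The genes that fell were spread over the roles above. AT1G50050 fell by 3.19 ± 0.34 (log2, with SE taken as the effect over the square root of F; adjusted p = 0.000295 in edgeR's test), the largest change in the set. WRKY30 fell by 2.37 ± 0.24 (adjusted p = 0.000229 in edgeR's test) and WRKY53 by 2.13 ± 0.23 (adjusted p = 0.000313). WAK5 fell by 2.33 ± 0.26 and WAKL6 by 1.61 ± 0.32 in the same test. These genes were lower with Al in both genotypes: for WRKY30 the decrease was 4.94-fold in wild-type roots (2.75 to 11.2) and 5.46-fold in labelled roots (4.02 to 7.89), and for WAK5 3.64-fold (2.13 to 7.26) and 6.26-fold (4.57 to 9.15).

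PROPEP3 fell by 1.57 ± 0.20 (adjusted p = 0.000724 in edgeR's test), ZAT11 by 1.60 ± 0.20, RRTF1 by 1.53 ± 0.22 and AT5G52020 by 1.86 ± 0.26. PCK2 fell by 1.38 ± 0.20 and AT5G28630 by 1.72 ± 0.24. Each of these 6 genes was also at least 2-fold lower in both genotypes, as were 14 genes in all. The share of all loci lower in both genotypes was not computed. The peroxidase gene AT5G64120 fell by 0.71 ± 0.23 (adjusted p = 0.0468 in edgeR's test), and its neighbour AT5G64110 did not pass (0.22 ± 0.25). The calls of AT5G64120, WAKL6, AT4G15975, AT5G35935, AT5G11140, AT1G55450, AT5G28610, AT5G11070 and AT4G24110 were lost in DESeq2's test.

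In the indole glucosinolate enzymes the Al ratios of the genotypes lay apart, a difference that has no replicate and was not tested. IGMT2 fell by 1.46 ± 0.38 (adjusted p = 0.0204 in edgeR's test) and IGMT3 by 1.55 ± 0.34 (adjusted p = 0.0106). The decrease of IGMT2 was 5.20-fold in labelled roots (4.67 to 5.82) and 1.51-fold in wild-type roots (1.21 to 1.89). IGMT1 was 3.29-fold lower in labelled roots (2.79 to 3.94) and 1.81-fold higher in wild type (1.11 to 3.12), and CYP81F2 2.49-fold lower (2.17 to 2.89) and 1.57-fold higher (1.101 to 2.30). Neither IGMT1 (-0.72 ± 0.49) nor CYP81F2 (-0.42 ± 0.40) passed the test.

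SARD1 was the member that rose, by 1.49 ± 0.31 (adjusted p = 0.0079 in edgeR's test). Its increase was 4.66-fold in wild-type roots (3.25 to 7.22) and 1.79-fold in labelled roots. Besides SARD1, the genes higher with Al in wild type were PP2-B14 (4.08-fold, 2.24 to 9.30), GRX480 (3.72-fold, 1.91 to 9.48), AT5G56960 (3.72-fold, 1.45 to 17.9), WRKY62 (2.63-fold, 1.49 to 5.32) and TAT3, which went from 0 to 9 reads. None of these other 5 passed edgeR's test. In labelled roots AT5G56960 was 2.58-fold lower with Al (1.89 to 3.66), the only member past the size limit in opposite directions.

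Among the others, 11 genes were lower with Al in labelled roots alone and 2, GLIP4 and AT5G64120, in wild type alone. A further 22 were past the size limit in neither genotype. Shares over all loci were not computed for these joint counts, so nothing is read from them. The ratio of the genotype ratios, without Al over with Al, was past 2-fold with an interval clear of 1 in favour of the untreated roots for 18 genes and in favour of the treated roots for 0. Over all kept loci, which did not have to meet the read floor, those shares were 4.64% and 3.71%. These ratios come from the contrasts that chose the genes, so nothing is read from the counts. The 18 genes included TAT3, AT5G56960, all 3 IGMT genes, CYP81F2, GRX480, PP2-B14, WRKY62, WRKY38 and SARD1.

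**Figure D3:**
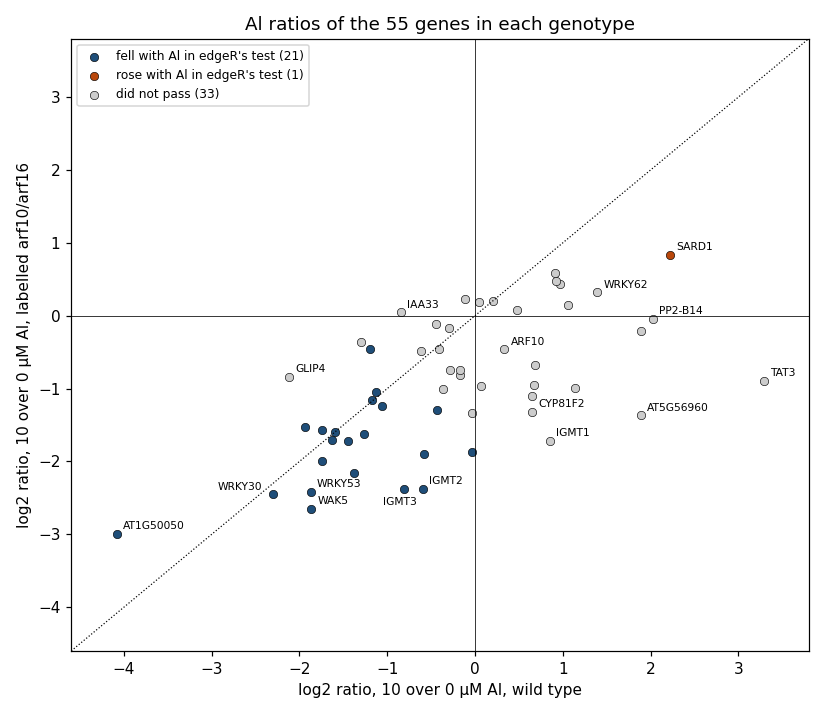
Log2 Al ratio (10 over 0 µM, CPM with 1 read added) in wild type on the horizontal axis and in labelled roots on the vertical axis for the 55 genes. Blue points are the 21 genes that fell and the red point the gene that rose (SARD1) in edgeR's test over both genotypes; the dotted line marks equal ratios, and points below it are lower with Al in labelled roots relative to wild type.

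Within 250 bases before the gene start, 43 of the 54 protein-coding members with a promoter in the RefSeq annotation (79.6%) held the W-box core TTGAC on either strand. The share was 46.9% of 9397 promoters of loci over the read floor and 44.9% of all 27443. It was 64.9% of the 456 promoters of loci past the fold without Al alone and 43.5% of the 92 past it with Al alone. At least 2 cores were present in 21 member promoters (38.9%), beside 15.3% of promoters over the floor. PROPEP3, SARD1 and AT5G11140 held 4 cores each, the most in the set. A match describes these letters and is not a binding site, and no test was made of the shares.

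Of the other motifs searched on both strands, CGCGT, the core bound by calmodulin-binding CAMTA factors, was in 10 member promoters (18.5%) beside 7.98% over the floor. TGACG, bound by TGA factors, was in 13 (24.1%) beside 19.2%; a TTGACG would count under both TTGAC and TGACG. The auxin response elements TGTCTC and TGTCGG were in 6 (11.1%) and 1 (1.85%), beside 10.2% and 4.63%. CACGTG, the G-box, was in 2 (3.70%) beside 7.12%, GCCGCC, the GCC box of ERF factors, in 0 beside 1.92%, and TATAAA in 26 (48.1%) beside 47.6%. With 500 bases searched, a window chosen after the values were seen, TTGAC was in 88.9% of members and 68.8% of loci over the floor. Counting 1 gene for each run of neighbours, also chosen afterwards, gave 40 of 51 (78.4%) at 250 bases.

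**Figure D4:**
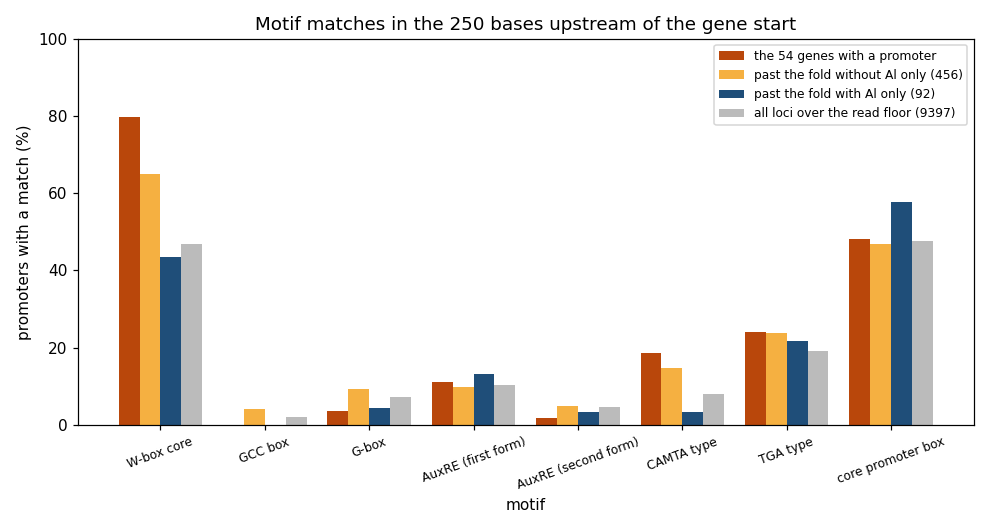
Share of promoters (%) with at least 1 match on either strand in 250 bases before the gene start, by motif, for the 54 genes, the loci past the fold in only 1 treatment and all loci over the floor. The W-box core was in 79.6% of the genes, 64.9% of the loci past the fold without Al alone and 46.9% of all loci over the floor.

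Chromosome 5 held 25 of the 55 (45.5%), beside 24.1% of loci over the floor, 23.8% of the 513 past the fold without Al and 32.4% of the 148 past it with Al. Chromosome 3 held 2 (3.64%) beside 20.1% of loci over the floor, and chromosomes 1, 2 and 4 held 15, 6 and 7. With chromosome 5 divided into 5 equal segments, the segment farthest from its first base held 10 members among 588 loci over the floor. When the rule was applied with TMM or DESeq2 scaling, a check added after the values were seen, the share on chromosome 5 was 37.8% of 74 genes. Around ARF10 on chromosome 2, KCS12 and GLR2.8 lay 160 and 392 kb from its start. They were the 2 members among 68 loci over the floor within 400 kb, beside 0.578% of all loci over the floor. That window was not planned beforehand, and nothing is read from the count.

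**Figure D5:**
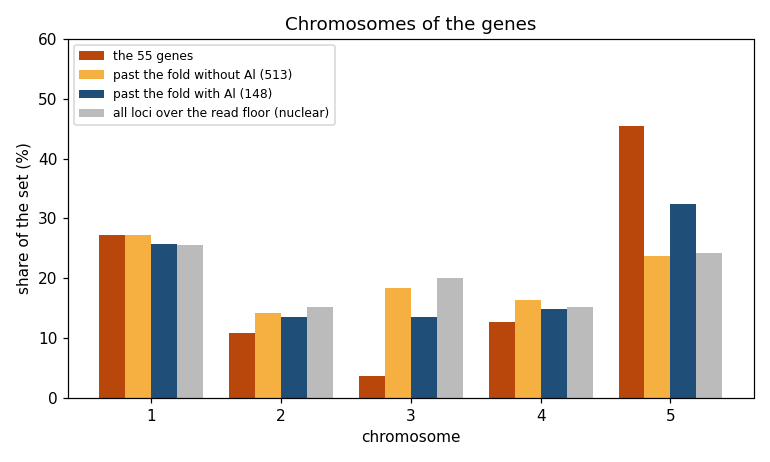
Share of each set (%) on the 5 nuclear chromosomes for the 55 genes, the 513 and 148 loci past 2.5-fold without and with Al, and all loci over the read floor. Chromosome 5 held 45.5% of the genes and 24.1% of the loci over the floor, and chromosome 3 held 3.64% and 20.1%.

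None of the cell type marker genes was a member. Over the read floor were 2 shoot, 5 root hair, 1 root cap, 4 endodermis and 4 stele markers. Members were 0.578% of all loci over the floor, so nothing is read from their absence here. The 6 root hair markers summed to 652 and 671 CPM without Al and to 70.2 and 198 CPM with Al; with Al 4 of the 5 over the floor were past 2.5-fold, and 0 were without Al. The 8 shoot markers of photosynthesis summed to 77.5 and 83.6 CPM and then 39.0 and 45.7 CPM, the 4 root cap markers to 43.0 and 27.0 and then 9.21 and 18.8 CPM, the 5 endodermis markers to 525 and 422 and then 149 and 186 CPM, and the 5 stele markers to 956 and 736 and then 549 and 414 CPM. The root cap factor SMB, the phloem factor APL and the photosynthesis genes LHCB1.1, LHCB2.1 and LHCA1 were at 0 reads in both libraries with Al. Their reads were already few without Al: SMB 3 and 3, APL 1 and 0, LHCB1.1 4 and 10, LHCB2.1 6 and 3, and LHCA1 0 and 1. In whole roots, fewer cells of a type and less RNA per cell cannot be told apart, and the part of cell composition in the levels of the 55 genes was not tested.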

How the data were processed

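Root RNA was sequenced from 4 groups with 1 library each. The deposited count table holds whole reads per transcript model, not normalized; an empty mark was read as 0, and the models of a locus were summed. The deposited RPKM table holds the same reads divided by model length and library total, per the file headers. The aligner, counter, strand setting and genome build were not given in the sources used here. Depth was 2080348 to 2280894 reads per library; intervals (exact Clopper-Pearson, 95%) cover counting error only. CPM used column totals with 1 read added. Names came from RefSeq TAIR10.1 by locus identifier (99.3% matched; 55 of the 55 genes), and promoters from its genome.

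The members and the gene lists were chosen with earlier results of these data known. Genes named are all 55 members, the nearest loci on either side of the threshold, and the targeted genes. Al was tested with edgeR 4.0.16 (R 4.3.3), quasi-likelihood, TMM, on 14739 loci passing filterByExpr, with Benjamini-Hochberg adjusted p at 0.05; the procedure was tested on simulated data. The alternatives used DESeq2 1.42.0 and limma 3.58.1, other scalings, read additions, folds, floors and filters, 1 model per locus, and the RPKM. A size limit for Al within a genotype was 2-fold with the interval clear of 1; for the ratio of ratios the interval used the 4 counts plus 0.5. No p-value was computed between single libraries.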

Additional observations from a re-analysis of the deposited data

Results flagged for a closer look

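AT5G56960, a basic helix-loop-helix protein gene, moved in opposite directions with Al in the genotypes. It had 4 reads without and 18 with Al in wild type, and 143 without and 52 with Al in labelled roots. The log2 Al ratio in labelled roots minus that in wild type was -3.26. With 1 library per group this difference was not tested.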

How the results depend on the processing

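The number of genes past the rule follows its thresholds: a fold of 2 gave 145 genes, a fold of 3 gave 26 and a floor of 50 reads gave 34. TMM and DESeq2 scaling gave 74 each, 0.5 or 5 reads added 56 and 39, a floor of 10 reads 80, the most-read model alone 57, and the RPKM 43; each list either held all 55 genes or was part of them. DESeq2's Wald test called 12 of the genes lower with Al, against 21 in edgeR's test; over all loci it called 1049 higher and 690 lower, against 2278 and 1924, and the cause was not tested. Column totals, edgeR's RLE, no filter and limma-trend on the RPKM gave 22, 21, 22 and 19 genes that fell and 1 that rose. No direction of a called value was reversed under these alternatives. No paired analysis was possible because each group has 1 library and the labels give no replicate numbers; no library could be left out for the same reason. At this depth 18 genes had at most 20 reads in both wild-type libraries, so their ratios have wide intervals.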
